A study of Mus musculus with 12 samples.

Results

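The 9 genes described here, Runx2, Sp7, Dlx5, Alpl, Phospho1, Bglap, Bglap2, Ifitm5 and Smpd3, were chosen by name as genes of osteoblast differentiation and mineralisation. They are 9 of the 49585 genes with counts, and 8 of them were among the 18648 genes tested. Phospho1 did not pass the filter, which asked for 0.5 CPM (the count of a gene scaled to the total of its library) in any 1 library. The CPM levels below use library sizes scaled by TMM, the trimmed mean of M-values. The genes were followed by RNA sequencing in 4 populations sorted from the bones of wild-type male C57BL/6 mice aged 8 to 10 weeks at steady state. Each population had 3 libraries of 2000 cells, all negative for CD45, Ter119 and CD31, the markers of haematopoietic, erythroid and endothelial cells. Itga8+ MSCs, Itga8- BLCs and Sca-1+ MSCs came from collagenase-digested bone fragments after the marrow was flushed. Both Itga8 populations were Alcam+ and Sca-1-, with only the BLCs labelled osteoblasts and the other populations labelled mesenchymal stem cells (MSCs), and Sca-1+ MSCs were Alcam-. CD51+CD140a+ MSCs came from the flushed marrow, so that population and source cannot be told apart in comparisons with them. The labels do not say whether the 3 libraries of a population came from separate animals. The p-values below therefore measure the spread between these libraries, which may be technical.

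Osteoblasts arise from mesenchymal progenitors under a cascade of transcription factors. Runx2 commits cells to the lineage, Dlx5 is a homeodomain factor that acts with it, and Sp7 (osterix) acts downstream of Runx2. Alkaline phosphatase (Alpl), Phospho1 and the sphingomyelinase Smpd3 serve mineralisation of the matrix, while osteocalcin (Bglap, Bglap2) and the membrane protein Ifitm5 are products of mature osteoblasts.

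Promoters are shown for Bglap and Ifitm5, whose transcripts were high in the same libraries, and for Runx2, whose distribution was different. The sequences are the 250 bases before the transcription start in RefSeq on GRCm38.p6, read 5′ to 3′ on the minus strand, where all 3 genes lie. Capitals mark matches on either strand to TGTGGT, the core bound by RUNX factors, to TAATTA, a homeodomain core, and to GGGCGG, the GC box.
Bglap, chr3:88384467-88384716: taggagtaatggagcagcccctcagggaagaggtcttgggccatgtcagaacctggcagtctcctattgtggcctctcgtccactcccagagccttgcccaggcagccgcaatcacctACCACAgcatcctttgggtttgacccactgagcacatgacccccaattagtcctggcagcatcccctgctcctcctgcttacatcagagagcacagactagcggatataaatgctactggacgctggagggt
Ifitm5, chr7:140950244-140950493: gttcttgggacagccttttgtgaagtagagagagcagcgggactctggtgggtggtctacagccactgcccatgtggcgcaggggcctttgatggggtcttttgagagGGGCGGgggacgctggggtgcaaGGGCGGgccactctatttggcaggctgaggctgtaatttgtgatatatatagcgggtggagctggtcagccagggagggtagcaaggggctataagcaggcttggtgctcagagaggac
Runx2, chr17:44814628-44814877: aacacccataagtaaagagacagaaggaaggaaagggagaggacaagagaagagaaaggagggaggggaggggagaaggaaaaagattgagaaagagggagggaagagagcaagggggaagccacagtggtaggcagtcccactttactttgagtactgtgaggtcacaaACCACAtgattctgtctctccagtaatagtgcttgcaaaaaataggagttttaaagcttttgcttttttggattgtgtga
In windows of 300 bases, which add 50 bases after the start, Bglap held 1 match to TGTGGT, at position -132, and Runx2 held 3, at -80, 24 and 32. Ifitm5 held 2 matches to GGGCGG, at -142 and -119, and none to the other 2 motifs. Of all 32851 windows, 16.8% held TGTGGT, 5.29% held TAATTA and 35.7% held GGGCGG. Promoter entries were matched for 5 of the 9 genes. Sp7, Dlx5, Bglap2 and Smpd3 were the other 4.

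The libraries held 17580677 to 31332475 counts. At these depths 3 counts, taken as the floor, equal 0.0820 to 0.180 CPM, and floors cover counting error only. Itga8+ replicate 2 stood apart from its population. In this library the markers of neutrophils and monocytes summed to 21439 CPM, against 3116 and 7654 CPM in the other Itga8+ libraries, and erythroid markers to 1555 CPM, against 118 and 130 CPM. Relative to its population, it also held more of the transcripts shorter than 1500 bases than of those longer than 5000 bases, by 1.74 on the log2 scale. The same difference was -0.46 and -1.17 in Itga8+ replicates 1 and 3, -0.025, -1.07 and 1.05 in Itga8- replicates 1, 2 and 3, and between -0.17 and 0.30 in the other 6 libraries. Among the sorting markers, Itga8 transcripts reached 35.2 to 199 CPM in Itga8+ MSCs and 0.398 to 4.17 CPM in Itga8- BLCs, and CD51+CD140a+ MSCs lay within the Itga8+ range at 53.1 to 82.9 CPM. Alcam transcripts overlapped between both Itga8 populations, at 1.29 to 5.04 and 3.83 to 5.82 CPM. The osteoblast label of the Itga8- libraries was checked with Col1a1 and Ibsp, which are not among the 9 genes. Col1a1 was at 16656 to 107157 CPM there and at 15135 to 18954 CPM in Sca-1+ MSCs, while Ibsp was at 2628 to 4681 CPM there and higher, at 6819 to 16048 CPM, in CD51+CD140a+ MSCs. In bulk samples, fewer cells of a type and less RNA per cell cannot be told apart.

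Of the 8 tested genes, 6 had their highest mean level in Itga8- BLCs, and the other two, Runx2 and Dlx5, in CD51+CD140a+ MSCs. Over Itga8+ MSCs, 5 of the 9 genes were higher in Itga8- BLCs, Runx2, Sp7, Bglap, Bglap2 and Ifitm5, and none was lower (edgeR quasi-likelihood test, FDR under 0.1 and fold above 2). Of all genes tested, 2.07% were called higher in this comparison and 1.61% lower. Over Sca-1+ MSCs, all 8 tested genes were higher in Itga8- BLCs, against 14.2% of all genes. Of these calls, that of Dlx5 was lost without Itga8- replicate 3 (1.83-fold), and that of Smpd3 without Itga8- replicate 2 (FDR 0.12), Sca-1+ replicate 2 (FDR 0.13) or Sca-1+ replicate 3 (FDR 0.13, edgeR). Over CD51+CD140a+ MSCs, 6 were higher, against 20.3% of all genes, and the exceptions were Runx2 and Dlx5. The median log2 fold change of the 8 tested genes was 2.30, 5.61 and 3.34 in these 3 comparisons, beside -0.08, 0.12 and 0.09 over all genes, and the first is the same with Ifitm5 at its lower bound. The 3 comparisons share the Itga8- libraries. Markers of other cells also differed between the populations. The 5 tendon markers summed to 3794 to 11088 CPM in Itga8+ MSCs, 2044 to 2976 CPM in Sca-1+ MSCs, 315 to 600.0 CPM in Itga8- BLCs and 23.6 to 37.0 CPM in CD51+CD140a+ MSCs, where 2, 3 and 0 of them were at 0 in replicates 1, 2 and 3. The 6 markers of mesenchymal stroma summed to 441 to 1839 CPM in Itga8- BLCs, 480 to 5877 CPM in Itga8+ MSCs, 43039 to 52112 CPM in Sca-1+ MSCs and 44048 to 62031 CPM in CD51+CD140a+ MSCs, with none at 0. The 9 markers of neutrophils and monocytes summed to 6662 to 9286 CPM in Itga8- BLCs and 3116 to 21439 CPM in Itga8+ MSCs, against 1130 to 2806 CPM in Sca-1+ MSCs and 1131 to 1793 CPM in CD51+CD140a+ MSCs, so that every library of both Itga8 populations lay above the other 6, and none of these markers was at 0. The 5 endothelial markers summed to 72.2 to 109 CPM in Sca-1+ MSCs and to at most 25.3 CPM in the other populations, with 1 at 0 in Itga8+ replicate 3. The part of these marker lists in the differences of the osteoblast genes was not tested.

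**Figure D1:**
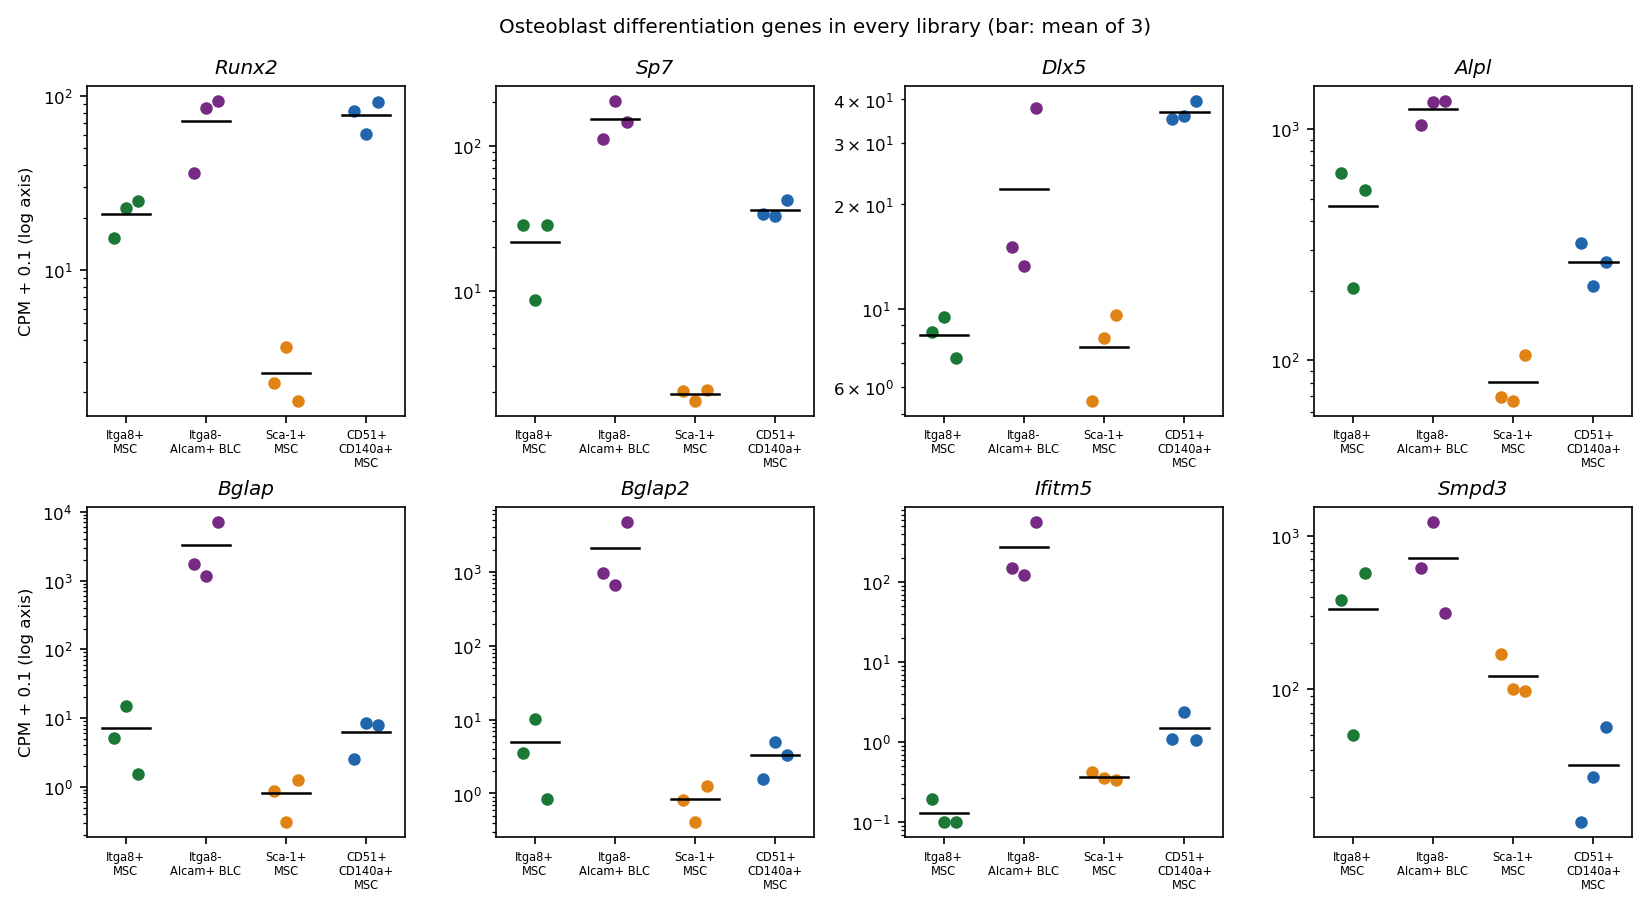
Level of 8 genes in each of the 12 libraries, as CPM plus 0.1 on a log axis, with 1 point per library and a bar at the mean of 3. Bglap, Bglap2 and Ifitm5 lie between 122 and 6983 CPM in the Itga8- libraries and at 15.0 CPM or less elsewhere, whereas Runx2 is at 60.1 to 91.7 CPM and Dlx5 at 34.9 to 39.5 CPM in CD51+CD140a+ MSCs.

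Runx2 marked both Itga8- BLCs and the marrow-derived CD51+CD140a+ MSCs. Its level was 35.9, 85.1 and 93.4 CPM in the Itga8- libraries and 81.6, 60.1 and 91.7 CPM in the CD51+CD140a+ libraries. It was 15.2, 22.6 and 24.7 CPM in Itga8+ MSCs and 2.16, 3.56 and 1.69 CPM in Sca-1+ MSCs. The first 2 populations overlapped and both lay above Itga8+ MSCs, which lay above Sca-1+ MSCs. Runx2 was 3.43-fold higher in Itga8- BLCs than in Itga8+ MSCs (log2 fold change 1.78 ± 0.41 SE, FDR 0.045, edgeR). It was 8.43-fold higher in Itga8+ than in Sca-1+ MSCs (FDR 0.00092, edgeR). Between Itga8- BLCs and CD51+CD140a+ MSCs the log2 difference was -0.12 ± 0.40 SE (FDR 0.84, edgeR). The call over Itga8+ MSCs was lost when Itga8+ replicate 2 and Itga8- replicate 3, in each case the library of its population with the largest excess of short transcripts, were both left out (log2 fold change 1.57, FDR 0.13, edgeR), and also without Itga8+ replicate 1, Itga8- replicate 2 or Itga8- replicate 3 alone and in a fit of these 2 populations alone (FDR 0.21, edgeR). Exons of Runx2 overlap an antisense gene, Runx2os1, over 5.87% of their length, and the counting was not stated to use strand.

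Sp7 was higher in Itga8- BLCs than in CD51+CD140a+ MSCs, which Runx2 did not tell apart. Its level was 111, 204 and 145 CPM in Itga8- BLCs and 33.9, 32.4 and 41.9 CPM in CD51+CD140a+ MSCs. It was 28.2, 8.52 and 28.3 CPM in Itga8+ MSCs and 1.94, 1.63 and 1.97 CPM in Sca-1+ MSCs. Every Itga8- library was above every other library. Sp7 was 7.07-fold higher in Itga8- BLCs than in Itga8+ MSCs (log2 fold change 2.82 ± 0.43 SE, FDR 0.0043, edgeR) and 4.25-fold higher than in CD51+CD140a+ MSCs (FDR 0.0032, edgeR). Itga8+ and CD51+CD140a+ MSCs were not told apart by this test (log2 difference -0.73 ± 0.41 SE, FDR 0.19, edgeR), although their libraries did not overlap. No call of Sp7 changed under any alternative run.

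Dlx5 had its highest mean in CD51+CD140a+ MSCs, with 34.9, 35.8 and 39.5 CPM. Itga8- BLCs held 15.0, 13.3 and 37.7 CPM, Itga8+ MSCs 8.51, 9.40 and 7.16 CPM, and Sca-1+ MSCs 5.37, 8.19 and 9.56 CPM. Replicate 3 alone placed Itga8- BLCs in the range of the CD51+CD140a+ libraries. The difference between these populations was not called (log2 difference of Itga8- BLCs over CD51+CD140a+ MSCs -0.74 ± 0.40 SE, FDR 0.18, edgeR). Without Itga8- replicate 3, Dlx5 was called 2.60-fold higher in CD51+CD140a+ MSCs (FDR 0.014, edgeR), and it was also called with the length trend removed and with scaling by library totals alone. Dlx5 was 4.39-fold higher in CD51+CD140a+ than in Itga8+ MSCs (FDR 0.0028, edgeR). The difference between Itga8- BLCs and Itga8+ MSCs did not pass the threshold (log2 difference 1.39 ± 0.41 SE, FDR 0.12, edgeR) but did with DESeq2 (FDR 0.025), with the length trend removed (FDR 0.063, edgeR) and without Itga8- replicate 2 (FDR 0.077, edgeR), and Itga8+ and Sca-1+ MSCs overlapped (log2 difference 0.12 ± 0.40 SE, FDR 0.87, edgeR). On simulated counts, which held no length trend and no outlying library, DESeq2 made 64 false calls and edgeR 11 for Itga8- BLCs over Itga8+ MSCs.

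Of the mineralisation enzymes, Alpl and Smpd3 had their highest mean in Itga8- BLCs, and Phospho1 was not measured by its counts. Alpl, the phosphatase that degrades the mineralisation inhibitor pyrophosphate, was at 1045, 1305 and 1321 CPM in Itga8- BLCs. It was at 642, 204 and 543 CPM in Itga8+ MSCs, at 322, 210 and 265 CPM in CD51+CD140a+ MSCs and at 69.1, 66.6 and 105 CPM in Sca-1+ MSCs. All Itga8- libraries were above all others, and the low Itga8+ library was replicate 2, which lay below the CD51+CD140a+ libraries. The difference between Itga8- BLCs and Itga8+ MSCs was 2.64-fold and just missed the threshold (log2 difference 1.40 ± 0.39 SE, FDR 0.1023, edgeR). It passed with DESeq2 (FDR 0.015), with limma-trend (FDR 0.044), with the trend of each library with transcript length removed (FDR 0.055, edgeR), with other filters on low counts and without Itga8+ replicate 1 or replicate 2. It did not pass in a fit of these 2 populations alone (FDR 0.43, edgeR) or without both Itga8+ replicate 2 and Itga8- replicate 3 (log2 difference 0.96 ± 0.29 SE, FDR 0.15, edgeR). Alpl was 5.76-fold higher in Itga8+ than in Sca-1+ MSCs (FDR 0.0019, edgeR).

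Smpd3, which cleaves sphingomyelin at the cell membrane, had its lowest mean in CD51+CD140a+ MSCs. Its level was 614, 1218 and 314 CPM in Itga8- BLCs and 383, 50.4 and 571 CPM in Itga8+ MSCs. It was 170, 100 and 97.3 CPM in Sca-1+ MSCs and 13.5, 26.7 and 56.4 CPM in CD51+CD140a+ MSCs. Itga8- and Itga8+ libraries overlapped (log2 difference 1.09 ± 0.76 SE, FDR 0.68, edgeR). Smpd3 was 22.2-fold higher in Itga8- BLCs (FDR 0.0026, edgeR) and 10.4-fold higher in Itga8+ MSCs (FDR 0.010, edgeR) than in CD51+CD140a+ MSCs, although in the second pair Itga8+ replicate 2 lay below the highest CD51+CD140a+ library. Both calls held with each library left out. The first value was 14.4-fold without Itga8- replicate 2 and 35.6-fold without CD51+CD140a+ replicate 3, and the second was 6.81-fold without Itga8+ replicate 3 and 16.7-fold without CD51+CD140a+ replicate 3. Between Sca-1+ and CD51+CD140a+ MSCs Smpd3 was not called (FDR 0.12, edgeR). Of the 9 genes, 1, Smpd3, was higher in Itga8+ than in CD51+CD140a+ MSCs, against 20.9% of all genes. In the same comparison 3 genes, Runx2, Dlx5 and Ifitm5, were lower, against 14.2% of all genes. Cartilage markers moved with Smpd3 within these 2 populations: they summed to 70117, 10696 and 116138 CPM in Itga8+ replicates 1, 2 and 3 and to 41968, 72766 and 9947 CPM in the Itga8- replicates. Of the 6 cartilage markers, Col10a1 was at 0 in Itga8+ replicates 2 and 3 and the other 5 were detected in each of these libraries. The same markers summed to 1320 to 1597 CPM in Sca-1+ MSCs, with none at 0, and to 525 to 1289 CPM in CD51+CD140a+ MSCs, with 1, 1 and 0 of them at 0 in replicates 1, 2 and 3, so every library of both Itga8 populations lay above them. Across the replicates of each Itga8 population, the excess of short over long transcripts given above ran in the reverse order of Smpd3 and of these markers. The part of cartilage markers and of transcript length in the levels of Smpd3 was not tested.

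Phospho1, a phosphatase that releases phosphate inside matrix vesicles, had 0 to 3 counts in every library and no comparison was made. Its exons are covered over 89.6% of their length by Zfp652 on the same strand and over 84.2% by Abi3 on the opposite strand. Only 14.6% of its 50-base words occur in no other gene, so these counts do not measure its level.

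In the comparisons of Itga8- BLCs with the other populations, the products of mature osteoblasts showed the steepest differences of these genes. Bglap, which encodes osteocalcin, was at 1753, 1176 and 6983 CPM in Itga8- BLCs. It was at 5.0, 15.0 and 1.44 CPM in Itga8+ MSCs, at 2.40, 8.28 and 7.86 CPM in CD51+CD140a+ MSCs and at 0.775, 0.203 and 1.17 CPM in Sca-1+ MSCs. Itga8- BLCs lay far above the other populations, and Itga8+ and CD51+CD140a+ MSCs overlapped. Bglap was 462-fold higher in Itga8- BLCs than in Itga8+ MSCs (log2 fold change 8.85 ± 1.19 SE, FDR 0.0021, edgeR) and 534-fold higher than in CD51+CD140a+ MSCs (FDR 0.00020, edgeR). Both calls held with each library left out, but their size rested on single libraries. The first was 208-fold without Itga8- replicate 3 and 998-fold without Itga8+ replicate 2, and the second was 237-fold without Itga8- replicate 3. Traces in the other populations came to 0.006% to 0.453% of the mean in Itga8- BLCs, with the highest in Itga8+ replicate 2.

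Bglap2, the neighbouring copy, followed Bglap at 974, 660 and 4670 CPM in Itga8- BLCs. It was at 3.46, 10.2 and 0.751 CPM in Itga8+ MSCs, at 1.48, 4.93 and 3.22 CPM in CD51+CD140a+ MSCs and at 0.719, 0.305 and 1.17 CPM in Sca-1+ MSCs. It was 435-fold higher in Itga8- BLCs than in Itga8+ MSCs (log2 fold change 8.77 ± 1.21 SE, FDR 0.0024, edgeR), which became 172-fold without Itga8- replicate 3 and 965-fold without Itga8+ replicate 2. The split between the copies is uncertain, since 43.4% of the 50-base words of Bglap and 11.8% of those of Bglap2 occur in no other gene. The third copy, Bglap3, had 20, 40 and 371 counts in Itga8- BLCs, 3, 0 and 0 in Itga8+ MSCs and none in the other 6 libraries.

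Ifitm5, a membrane protein of bone-forming cells, was nearly undetected in Itga8+ MSCs. It was at 149, 122 and 558 CPM in Itga8- BLCs and at 2, 0 and 0 counts in Itga8+ MSCs. CD51+CD140a+ MSCs held 1.01, 2.26 and 0.966 CPM and Sca-1+ MSCs 0.332, 0.254 and 0.234 CPM. Since the Itga8+ libraries were at or under the floor, the level in Itga8- BLCs was at least 1736-fold higher (FDR 0.00014, edgeR), and at least 850-fold higher without Itga8- replicate 3. It was 195-fold higher than in CD51+CD140a+ MSCs (FDR 3.6e-05, edgeR), or 95.3-fold without that library. Another gene, Gm45717, covers 29.7% of its exons on the same strand.

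**Figure D2:**
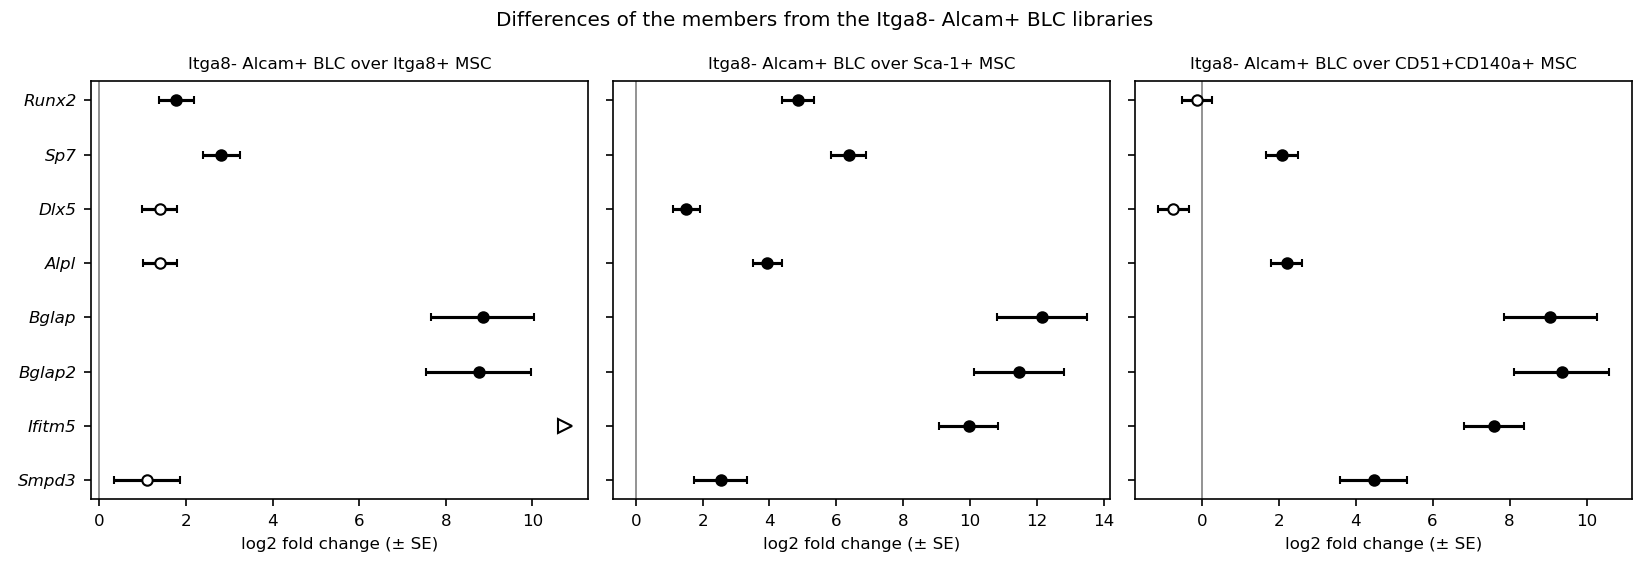
Log2 fold change with its SE of 8 genes in Itga8- BLCs over each other population, with filled circles for called differences and open circles for the rest. The open triangle is the lower bound of Ifitm5 over Itga8+ MSCs, and Runx2 and Dlx5 lie at -0.12 and -0.74 over CD51+CD140a+ MSCs.

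Within Itga8- BLCs the genes did not rise and fall together. Of the 8 tested genes, 6 were highest in replicate 3 by CPM, Runx2, Dlx5, Alpl, Bglap, Bglap2 and Ifitm5. Sp7 and Smpd3 were highest in replicate 2. Scaled by length (TPM), Runx2 and Alpl were highest in replicate 2 instead, at 31.7 and 1063 against 24.0 and 743 TPM in replicate 3. Together Bglap, Bglap2 and Ifitm5 took 61.2%, 40.9% and 86.5% of the counts of the 9 genes in Itga8- replicates 1, 2 and 3. The excess of short over long transcripts given above was also highest in replicate 3 and lowest in replicate 2, and the exons of Bglap, Bglap2 and Ifitm5 add up to 618, 471 and 765 bases. Exons were longer for the other genes highest in replicate 3 by CPM, at 8837 bases for Runx2, 2263 for Dlx5 and 4033 for Alpl. They were also longer for Sp7 and Smpd3, at 3398 and 5232 bases. The part of transcript length in this order was not tested. The calls of Bglap, Bglap2 and Ifitm5 over Itga8+ MSCs held without replicate 3 and with the length trend removed.

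Levels scaled by length (TPM) were compared within a library. Sp7 was 4.03 to 8.02 times as high as Runx2 in Itga8- BLCs and 1.08 to 1.40 times in CD51+CD140a+ MSCs. It was 0.978 to 4.82 times as high in Itga8+ MSCs, which overlapped Itga8- BLCs, and 1.19 to 3.03 times in Sca-1+ MSCs, which did not. Bglap was 31.8 to 265 times as high as Sp7 in Itga8- BLCs, and 0.281 to 9.66 times in Itga8+ MSCs. Alpl was 5.40 to 7.95 times as high as Sp7 in Itga8- BLCs, 5.33 to 8.02 times in CD51+CD140a+ MSCs, 16.2 to 20.2 times in Itga8+ MSCs and 30.0 to 45.2 times in Sca-1+ MSCs. The ratio of Alpl to Sp7 in Itga8+ replicate 2 was 20.2, close to the other Itga8+ libraries, although both genes were low there.

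**Figure D3:**
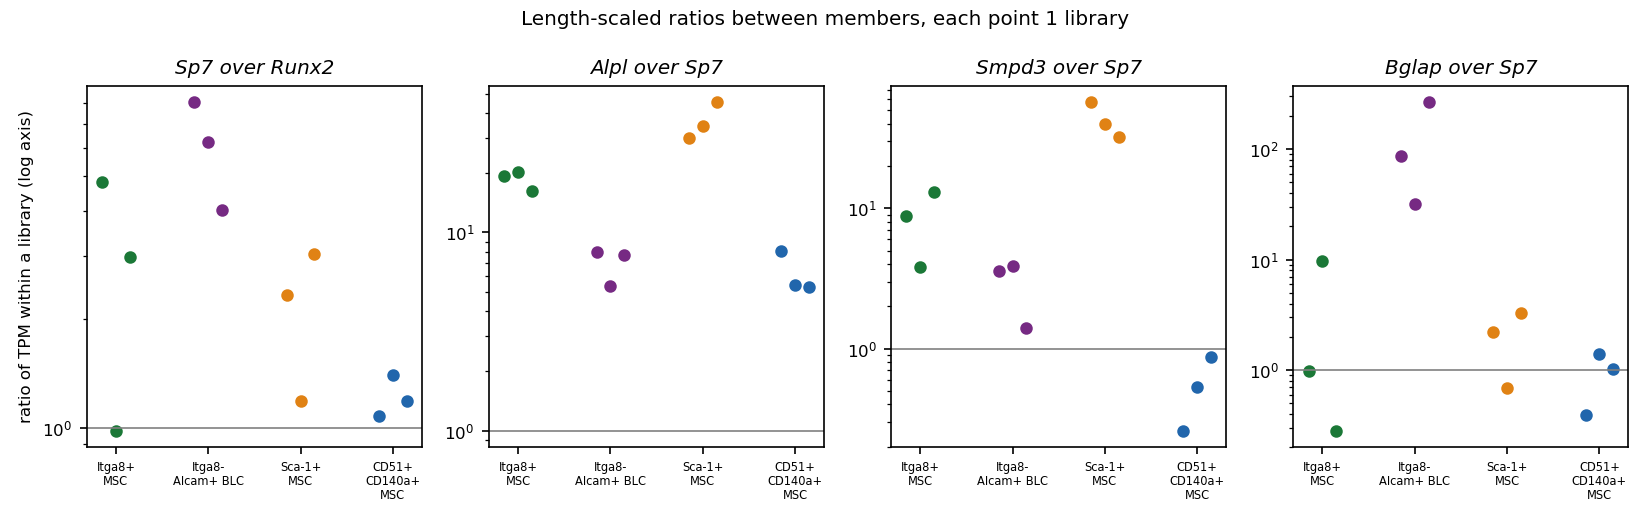
Ratios of TPM between pairs of genes within each library on a log axis, with 1 point per library and a grey line at 1. The ratio of Alpl to Sp7 is 5.33 to 8.02 in Itga8- BLCs and CD51+CD140a+ MSCs together and 16.2 or more in the other 2 populations.

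Against Sca-1+ MSCs, 5 of the 9 genes were higher in the Itga8+ population, Runx2, Sp7, Alpl, Bglap and Bglap2, against 12.6% of all genes, and none was lower. Ifitm5 lay the other way, below every Sca-1+ library in each Itga8+ library. With the Itga8+ libraries at or under the floor, it was at least 1.72-fold higher in the Sca-1+ libraries. This was not called (FDR 0.13, edgeR), but Ifitm5 was called lower in Itga8+ MSCs with DESeq2, with the length trend removed and without Itga8+ replicate 1 or Itga8- replicate 3. The Ifitm5 counts were few, at 6, 5 and 5 in the Sca-1+ libraries and 2, 0 and 0 in the Itga8+ libraries. The calls of Bglap and Bglap2 rested on few counts, 4 to 25 per Sca-1+ library for either gene, and were lost without Sca-1+ replicate 1 or replicate 2, leaving 3 calls. They were also lost without Itga8+ replicate 2, where Smpd3 was gained, leaving 4 calls. The call of Bglap2 alone was lost without Itga8+ replicate 1, Itga8- replicate 1, Sca-1+ replicate 3 or CD51+CD140a+ replicate 3. It was also lost with limma-trend, with a replicate block, in a fit of these 2 populations alone, at an FDR under 0.05 and without both Itga8+ replicate 2 and Itga8- replicate 3. Sca-1+ MSCs held less of 6 genes than CD51+CD140a+ MSCs, Runx2, Sp7, Dlx5, Alpl, Bglap and Ifitm5, against 9.15% of all genes. Without Sca-1+ replicate 1, Sca-1+ replicate 2 or CD51+CD140a+ replicate 2, the calls of Bglap and Ifitm5 in that comparison were lost and 4 remained. The call of Bglap was also lost without CD51+CD140a+ replicate 3, and that of Ifitm5 without Sca-1+ replicate 3.

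Other genes of the lineage were counted by lists written from general knowledge. Of 20 other regulators, 4 were higher in Itga8- BLCs than in Itga8+ MSCs, Dlx3, Twist1 and Tcf7 among them, and 2 were lower (Msx1 and Twist2), beside 2.07% and 1.61% of all genes. The median log2 fold change was 0.48, and 2 to 6 were called higher over the alternatives run. The call of Dlx3 held in all 24 of them, while that of Twist1 was lost in 6 and that of Tcf7 in 4. The homeodomain gene Dlx3 was at 22.3 to 52.2 CPM in Itga8- BLCs and at most 0.693 CPM in Itga8+ and CD51+CD140a+ MSCs. In contrast to Dlx5, Dlx3 was thus low in the marrow population (log2 fold change of Itga8- BLCs over it 6.73 ± 0.62 SE, FDR 1.6e-05, edgeR). Atf4, the regulator of highest length-scaled level, was at 387 to 930 CPM in Itga8- BLCs and 264 to 380 CPM in Itga8+ MSCs and was not called (FDR 0.33, edgeR). Nfatc1 was not called either (FDR 0.94, edgeR).

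Of 15 bone matrix genes, 4 were higher in Itga8- BLCs than in Itga8+ MSCs (Col1a1, Col1a2, Ibsp and Col13a1) and none was lower, beside 2.07% and 1.61% of all genes, with a median log2 fold change of 1.6. Over the alternatives 1 to 8 were called. The call of Ibsp held in all 24, that of Col1a2 was lost in 1, that of Col1a1 in 10 and that of Col13a1 in 14. Over CD51+CD140a+ MSCs 13 were higher, beside 20.3% of all genes higher and 14.7% lower, and Ibsp, which encodes bone sialoprotein, was lower (log2 difference -1.55 ± 0.41 SE, FDR 0.015, edgeR). Col1a2, a chain of type I collagen, was at 49738 to 197834 CPM in Itga8- BLCs and 1505 to 13203 CPM in Itga8+ MSCs. Sparc, which encodes osteonectin, was at 61486 to 184257 and 26975 to 60116 CPM and was not called (FDR 0.21, edgeR).

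Of 12 other genes of phosphate and mineral handling, 2, Phex and Dmp1, were higher in Itga8- BLCs than in Itga8+ MSCs, beside 2.07% of all genes, and 1 to 4 were over the alternatives. The call of Phex was lost with DESeq2 and in a fit of these 2 populations alone, and that of Dmp1 held throughout. Dmp1, an acidic matrix protein of osteoblasts becoming osteocytes, was at 1634 to 2265 CPM in Itga8- BLCs, 6.15 to 9.32 CPM in CD51+CD140a+ MSCs and 0 to 0.462 CPM in Itga8+ MSCs. Phex, an endopeptidase of phosphate regulation, was at 45.0 to 225 CPM in Itga8- BLCs and 89.5 to 105 CPM in CD51+CD140a+ MSCs, which were not told apart (FDR 0.94, edgeR). Ank, a pyrophosphate transporter, was at 172 to 218 CPM in Itga8- BLCs and 121 to 415 CPM in Itga8+ MSCs (FDR 0.78, edgeR).

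Of 10 other lineage genes, 4, Pth1r, Tmem119, Cgref1 and Lifr, were higher in Itga8- BLCs than in Itga8+ MSCs, beside 2.07% of all genes, and none was lower. The alternatives gave 3 to 5, and the call of Pth1r was lost in 5 of 24. Tmem119 was at 413 to 774 and 64.5 to 95.9 CPM, and Cgref1 at 546 to 1832 and 73.0 to 117 CPM in these populations. Sca-1+ MSCs held 307 to 352 CPM of Tmem119 and 85.5 to 152 CPM of Cgref1. Between Itga8- BLCs and Sca-1+ MSCs, Cgref1 was called and Tmem119 was not. Of 4 osteocyte genes 3 were tested and 1, Dkk1, was higher in Itga8- BLCs than in Itga8+ MSCs, beside 2.07% of all genes. Dkk1, an inhibitor of Wnt signalling, was at 10.5 to 33.1 CPM in Itga8- BLCs and 0 to 0.495 CPM in Itga8+ MSCs. Its call was lost in 4 alternatives, among them leaving out Itga8- replicate 3. Pdpn, a marker of early osteocytes, was at 18.4 to 23.4 and 2.13 to 9.05 CPM and was not called (FDR 0.28, edgeR). Sca-1+ MSCs held 31.0 to 37.8 CPM of Pdpn, above every Itga8- library, and that difference was not called either. Sost, the sclerostin gene of mature osteocytes, had 6, 11 and 3 counts in Itga8- BLCs and 0 in the other 9 libraries, and did not pass the filter.

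**Figure D4:**
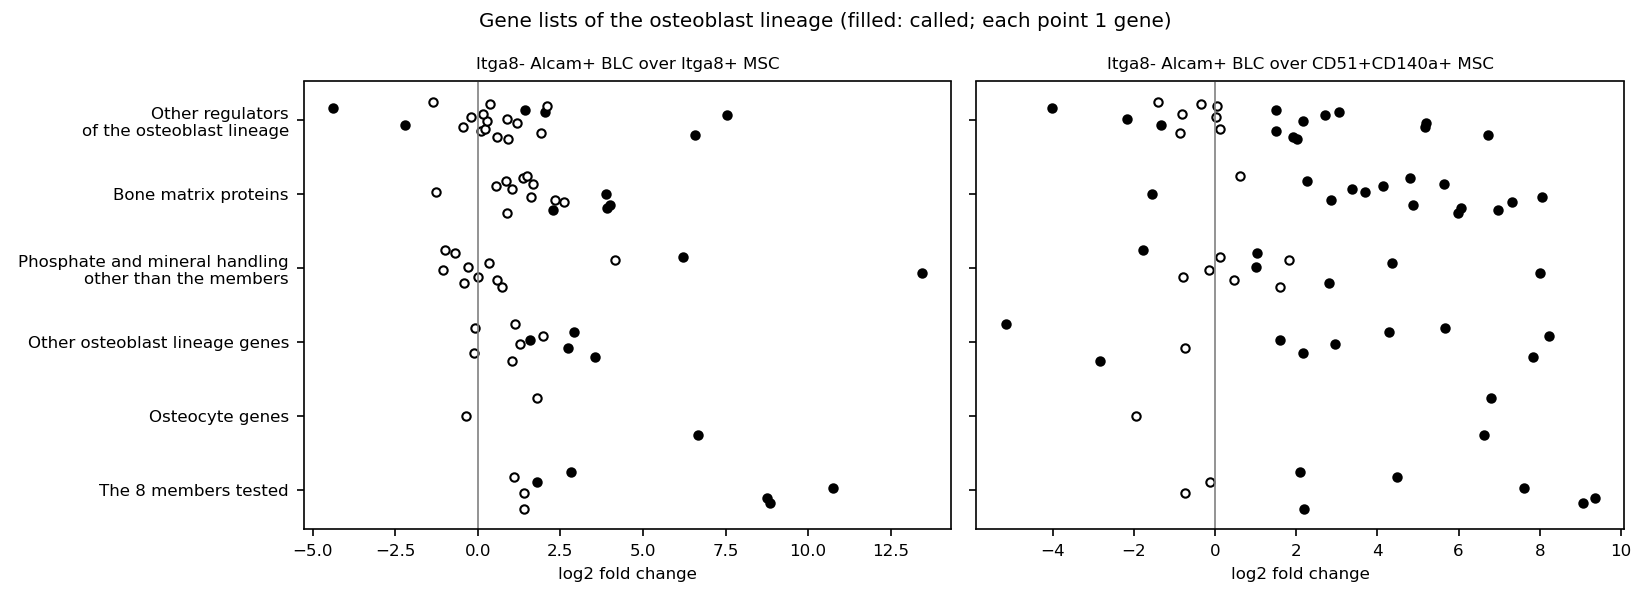
Log2 fold change of each gene of 5 lists and of the 8 tested genes, in Itga8- BLCs over Itga8+ MSCs and over CD51+CD140a+ MSCs, with filled points for called differences. Dlx3 lies at 6.58 over Itga8+ MSCs, Dmp1 at 13.44 and Col1a2 at 3.99, and a gene at or under the floor in the second population is drawn at its lower bound.

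The genes most like the 9 in pattern were ranked by Pearson r over the 12 libraries with the mean scaled level of the 8 tested genes, as a description only. Among 10556 other genes of at least 10 CPM in their highest population, the first 8 were Pck2 (r = 0.991), Bcar3 (0.985), Gm42836 (0.982), Tdrp (0.979), Chn1 (0.977), Chn1os1 (0.976), Rcn1 (0.968) and Pth1r (0.962). Pck2, the mitochondrial phosphoenolpyruvate carboxykinase, was at 141 ± 47.1 CPM (SD, n = 3) in Itga8- BLCs and 33.2 ± 5.53 CPM in Itga8+ MSCs. Reads of Chn1 and its antisense partner Chn1os1 cannot be told apart without strand. Of the 8 tested genes, Sp7 was nearest to that mean (0.951), and Dlx5 (0.528) and Smpd3 (0.480) were farthest from it. Each of them is part of the mean, so these r values cannot be set beside those of other genes.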

How the data were processed

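RNA was sequenced from 12 libraries of 4 sorted populations, prepared with SMART-Seq v4 and Nextera XT. The authors deposited a table per library of unnormalised read counts for Ensembl genes, made on mm10. The submitters' processing notes name FastQC 0.11.7, Trimmomatic 0.38, HISAT2 2.1.0, SAMtools 1.9 and featureCounts 1.6.3, whereas the methods of the study name TopHat and Bowtie2. The annotation release and the use of strand are not given in the sources used here. Multi-mapping and PCR copies therefore limit the values of near-identical genes.

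All 12 libraries were fitted in 1 edgeR 4.0.16 quasi-likelihood model (R 4.3.3) scaled by TMM. Genes that reached 0.5 CPM of the unscaled library total in any 1 library were kept, and p-values were adjusted over all 18648 genes. Differences were called at an FDR under 0.1 and a fold above 2. Exact permutation tests of 3 libraries against 3 cannot go below 0.1. TPM used exon lengths of GENCODE M21, whose assembly is that of mm10, and promoters came from RefSeq. The tables and figures were made with Python 3.11.15, numpy 2.4.6, pandas 2.3.3 and matplotlib 3.10.9. Simulated counts were drawn from 1 mean per gene over all libraries, with 200 genes changed in Itga8- BLCs. They held no length trend and no outlying library. For Itga8- BLCs against Itga8+ MSCs, edgeR recovered 81.0% of the changed genes with 11 false calls, DESeq2 84.0% with 64 and limma-trend 79.5% with 12.

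The genes and lists were chosen with earlier results of these data known. The text gives all 9 genes, and for each list the 2 genes of highest TPM and the 2 of largest change over Itga8+ MSCs. A result under this rule is not reported here. Ibsp, Sost and genes named in counts of 5 or fewer were chosen after their values were seen. Alternatives were DESeq2 1.42.0, limma-trend 3.58.1, other scaling and filters, a fit of the compared groups alone, a replicate block, an FDR under 0.05, summed Bglap genes and each library left out. Leaving out both Itga8+ replicate 2 and Itga8- replicate 3 and removing the length trend were added after seeing the data.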

Additional observations from a re-analysis of the deposited data

How the results depend on the processing

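The counts of the 9 genes called ranged over the alternatives from 4 to 7 for Itga8- BLCs over Itga8+ MSCs (5 as reported), 7 to 8 over Sca-1+ MSCs (8), 6 to 7 over CD51+CD140a+ MSCs (6), 3 to 6 for Itga8+ over Sca-1+ MSCs (5), 4 to 5 for Itga8+ over CD51+CD140a+ MSCs (4) and 4 to 8 for Sca-1+ over CD51+CD140a+ MSCs (6). These counts take both directions together. In the third, the addition was Dlx5, lower in Itga8- BLCs. In the fourth, 3 to 5 were higher in Itga8+ MSCs and 0 to 1, Ifitm5, lower. In the fifth, 1 to 2 were higher and 3 lower. In the last, 4 to 7 were lower in Sca-1+ MSCs and 0 to 1, Smpd3, higher. With single libraries left out, the count for Itga8+ over Sca-1+ MSCs ran from 3 to 6. Whether the replicate numbers pair the samples is not known. Deviations from the population means correlated between -0.736 and 0.342 for same-numbered libraries and between -0.461 and 0.780 for the others. These correlations cannot decide it, since library traits such as the excess of short transcripts also enter them. With a replicate block the counts were 5, 8, 6, 4, 4 and 6 in the order above. The only sign changes were in differences that were not called. Bglap in Itga8+ over CD51+CD140a+ MSCs was -0.16 with limma-trend, -0.89 without both Itga8+ replicate 2 and Itga8- replicate 3, -0.47 with the length trend removed and -0.90 to 0.67 with single libraries left out. Bglap2 there was -0.55 and -0.060 in the same 2 added fits and -0.56 to 1.08 with single libraries left out. Runx2 in Itga8- BLCs over CD51+CD140a+ MSCs was 0.40 with the length trend removed and -0.37 to 0.19 with single libraries left out. Dlx5 in Itga8+ over Sca-1+ MSCs was -0.23 with the length trend removed and -0.087 to 0.30 with single libraries left out. The cause was not tested. All genes called for Itga8- BLCs over Itga8+ MSCs, in either direction, made up 3.68% as reported and 1.55% to 6.45% over the alternatives. In that comparison the calls ranged from 1 to 8 of the matrix genes (4 as reported) and from 1 to 6 of the phosphate genes (2). The genes nearest in pattern shared 6 to 8 of 8.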
